A study of Homo sapiens with 6 samples.

Results

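The 10 genes described here encode the cytosolic 70 kDa heat shock proteins (*HSPA1A*, *HSPA1B*, *HSPA6*, *HSPA8*, *HSPA1L* and *HSPA2*, with the annotated pseudogene *HSPA7*) and their larger HSP110 relatives (*HSPH1*, *HSPA4* and *HSPA4L*). They were taken by gene symbol, whatever their level, and are 10 of the 58825 genes in the deposited table. The group was chosen with earlier results of these data known. RNA was sequenced from MDA-MB-231, an established cell line of triple-negative breast cancer, treated for 24 h with disulfiram and copper (DSF/Cu, 0.2 µM, n = 3) or with the solvent dimethyl sulfoxide (DMSO, n = 3). Each library came from the pooled cells of 3 wells, and the labels do not say that the libraries of a group came from separate cultures, so the p-values rest on a spread between samples that may be partly technical. Disulfiram is an aldehyde dehydrogenase inhibitor whose metabolite binds copper. Neither disulfiram alone nor copper alone was among the groups, so the effects of the drug and of the metal cannot be told apart. In bulk RNA, more cells that express a gene and more RNA per cell cannot be told apart either.

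HSP70 proteins bind exposed hydrophobic stretches of unfolded proteins and release them in a cycle driven by ATP. J-domain proteins deliver the client and trigger ATP hydrolysis, and HSP110 proteins open the nucleotide site so that ADP leaves and the client is freed. The stress-inducible HSP70 genes are classical targets of the transcription factor HSF1, which binds heat shock elements, arrays of GAA blocks in alternating orientation, while *HSPA8* supplies most HSP70 in unstressed cells.

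Total counts per library ran between 55563223 and 61633168 in DSF/Cu and between 62165212 and 70883177 in DMSO. The labelled line was checked against its markers. The mesenchymal gene *VIM* averaged 2734 ± 179 CPM (TMM-scaled counts, relative to library size) in DSF/Cu and 3297 ± 213 CPM in DMSO, while the epithelial gene *CDH1* and the hormone receptor genes *ESR1* and *PGR* averaged under 1 CPM in both groups. The other markers fixed as low for this line were not at 0: *ERBB2* averaged 39.7 ± 3.33 CPM in DSF/Cu and 69.4 ± 4.69 CPM in DMSO, and *EPCAM* averaged 4.49 ± 0.720 CPM in DSF/Cu and 7.30 ± 1.45 CPM in DMSO. Of 12 markers of immune, endothelial, fat and stromal cells, 6 were at 0 in every library, and the 12 summed to between 3.45 and 4.82 CPM in DSF/Cu and between 0.485 and 1.79 CPM in DMSO. Their part in the results was not tested.

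Sequences show first how alike some of these genes are, since this decides how far their counts can be separated. The transcripts of *HSPA1A* and *HSPA1B* were 98.7% identical, with 28 differences over 2150 aligned bases, and those of *HSPA6* and *HSPA7* were 98.6% identical, with 27 differences over 1926 bases. Every other pair of HSP70 transcripts was between 72.5% and 82.3% identical. Windows of 100 bases with an exact copy in another member made up 69.9% of the *HSPA1A* transcript, 68.8% of *HSPA1B*, 27.6% of *HSPA6* and 34.4% of *HSPA7*, and 0% of the other members. With windows of 150 bases the values were 67.1% for *HSPA1A*, 66.0% for *HSPA1B*, 15.2% for *HSPA6* and 19.0% for *HSPA7*. Fragments that lie wholly within a shared stretch cannot be assigned to a copy. Each copy's count is therefore uncertain, and both pairs are also given as sums. The stretches below come from aligned parts of the transcripts (GENCODE 29 transcripts, GRCh38, all on the plus strand, at chr6:31817602-31817661, chr6:31829796-31829855, chr1:161525142-161525201 and chr1:161606774-161606833), and capitals mark bases that differ within a pair.
HSPA1A: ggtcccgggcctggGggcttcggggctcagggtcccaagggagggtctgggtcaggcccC
HSPA1B: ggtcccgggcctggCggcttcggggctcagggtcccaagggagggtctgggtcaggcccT
HSPA6: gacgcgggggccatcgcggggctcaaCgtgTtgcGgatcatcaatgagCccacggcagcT
HSPA7: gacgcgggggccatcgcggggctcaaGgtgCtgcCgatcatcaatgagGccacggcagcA
The first pair differed at 2 of 60 bases here and the second pair at 5 of 60. Each stretch was picked as one with the most differences in the coding part. It therefore overstates how far the whole transcripts differ.

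The promoters of the members that carried the largest changes in counts are shown next. These genes all rose, and matches to heat shock element motifs can be read from the letters. Their log2 fold changes were unlike, at 1.05 for *HSPA8* against 6.31 for *HSPA1B*, 7.55 for *HSPA1A* and 11.79 for *HSPA6*. *HSPH1*, with a log2 fold change of 2.17, is not shown. RefSeq windows (GRCh38.p14), reaching from 250 bases before to 50 bases after a start site, were found for 9 of the 10 members, in 11 windows. Capitals mark every match to GAANNTTC or TTCNNGAA (2 blocks), or to both of them overlapping in 1 shared block (3 blocks), searched on both strands. A 3-block match thus always holds both 2-block motifs. *HSPA1A* is shown at chr6:31815293-31815463, *HSPA1B* at chr6:31827488-31827734 and *HSPA6* at chr1:161524290-161524539 (plus strand), each cut before annotated exon bases. *HSPA8* is shown as 30-base stretches round its 3-block matches, at chr11:123062345-123062374 and chr11:123062170-123062199 (minus strand). Both stretches lie before the RefSeq start but within the annotated span of the gene, chr11:123057489-123063230.
HSPA1A: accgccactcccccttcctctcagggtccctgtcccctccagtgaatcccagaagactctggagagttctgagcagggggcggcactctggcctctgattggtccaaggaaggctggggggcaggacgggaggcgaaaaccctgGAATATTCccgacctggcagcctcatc
HSPA1B: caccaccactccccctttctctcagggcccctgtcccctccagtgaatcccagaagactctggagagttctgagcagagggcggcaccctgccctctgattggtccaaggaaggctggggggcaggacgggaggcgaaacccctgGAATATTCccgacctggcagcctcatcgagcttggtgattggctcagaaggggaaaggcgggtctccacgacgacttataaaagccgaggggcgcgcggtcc
HSPA6: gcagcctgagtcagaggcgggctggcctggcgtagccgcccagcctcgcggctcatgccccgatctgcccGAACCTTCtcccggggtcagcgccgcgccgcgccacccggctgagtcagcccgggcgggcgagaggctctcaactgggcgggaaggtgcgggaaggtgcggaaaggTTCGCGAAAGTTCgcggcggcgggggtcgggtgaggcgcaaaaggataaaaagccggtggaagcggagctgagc
HSPA8, distal: gcgagcttGAAAGTTCCAGAAcgctgcggt
HSPA8, proximal: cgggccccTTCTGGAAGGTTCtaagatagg
The 3-block motif was found in 2 members, at 2 places in *HSPA8* and at 1 place in *HSPA6*, against 0.490% of all 35116 promoter windows of the table. *HSPA1A* and *HSPA1B* each held GAANNTTC once, starting 106 and 105 bases before the RefSeq start, and 6.77% of all windows hold it. Either 2-block motif was present in 13.5% of all windows. The core promoter letters TATAAA lay 30 bases before the start in *HSPA1A* and 29 bases before it in *HSPA1B*, and 11.5% of all windows hold them on some strand. Another common promoter motif, CCAAT, was found at 2 places in each of these windows and in 34.6% of all windows. The windows of *HSPH1*, *HSPA4* and *HSPA2* held no 3-block or 2-block motif, which says nothing of elements elsewhere or of looser spelling. A match is a description of letters and was not tested as a binding site.

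**Figure D1:**
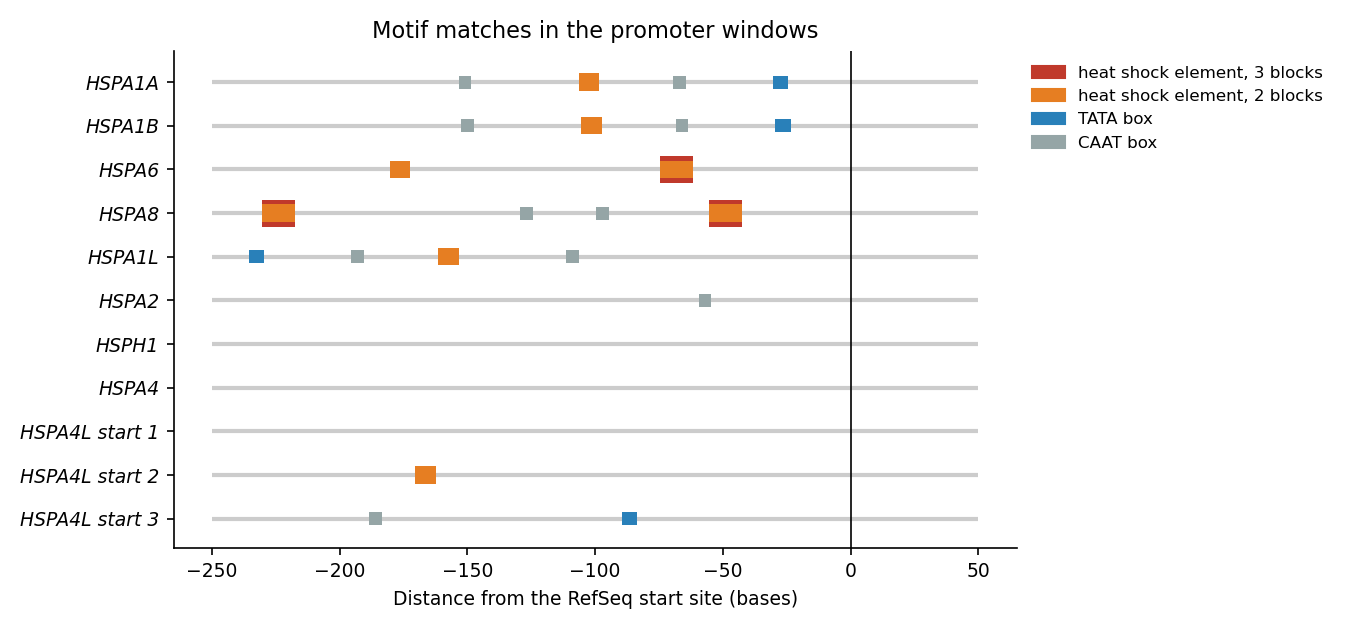
Matches to heat shock element motifs (3 blocks or 2 blocks), the TATA box and the CAAT box in the 300-base RefSeq windows of 9 members, by distance in bases from the annotated start (vertical line). *HSPA6* and *HSPA8* carry 3-block matches, *HSPA1A*, *HSPA1B*, *HSPA1L* and 1 of 3 *HSPA4L* windows carry a 2-block match without a 3-block one, and *HSPH1* and *HSPA4* carry no match of any kind.

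The main comparison asked how DSF/Cu changed the level of each gene. All 10 members had enough counts to be tested among 18229 genes, although *HSPA7* met the count minimum only through the DSF/Cu libraries. It is included in the counts of members below, where its rise is not independent of that filter. At an adjusted p under 0.05 (edgeR quasi-likelihood test, Benjamini-Hochberg over all genes tested), 9 of the 10 were raised, where 18.5% of all tested genes were raised and 35.2% called in either direction. None was lowered, where 16.8% of all tested genes were lowered, and since every log2 fold change was above 0, none was lowered at an unadjusted p under 0.05 or with DESeq2 or limma. The remaining gene, *HSPA2*, was not called. The levels of the same 9 genes did not overlap between groups, being higher in all 3 DSF/Cu libraries than in all 3 DMSO libraries, which held for 26% of all tested genes (51.2% did not overlap in either direction). Called rises of at least 4-fold were found in 6 of the 10 members and in 3.7% of all tested genes. With scaling by total counts alone, 2356 of all genes were raised and 4856 lowered, against 3365 raised and 3059 lowered as reported, and the median log2 fold change of all genes was -0.18 in place of 0.00; the 9 members stayed raised. The members' median log2 fold change was 2.54.

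**Figure D2:**
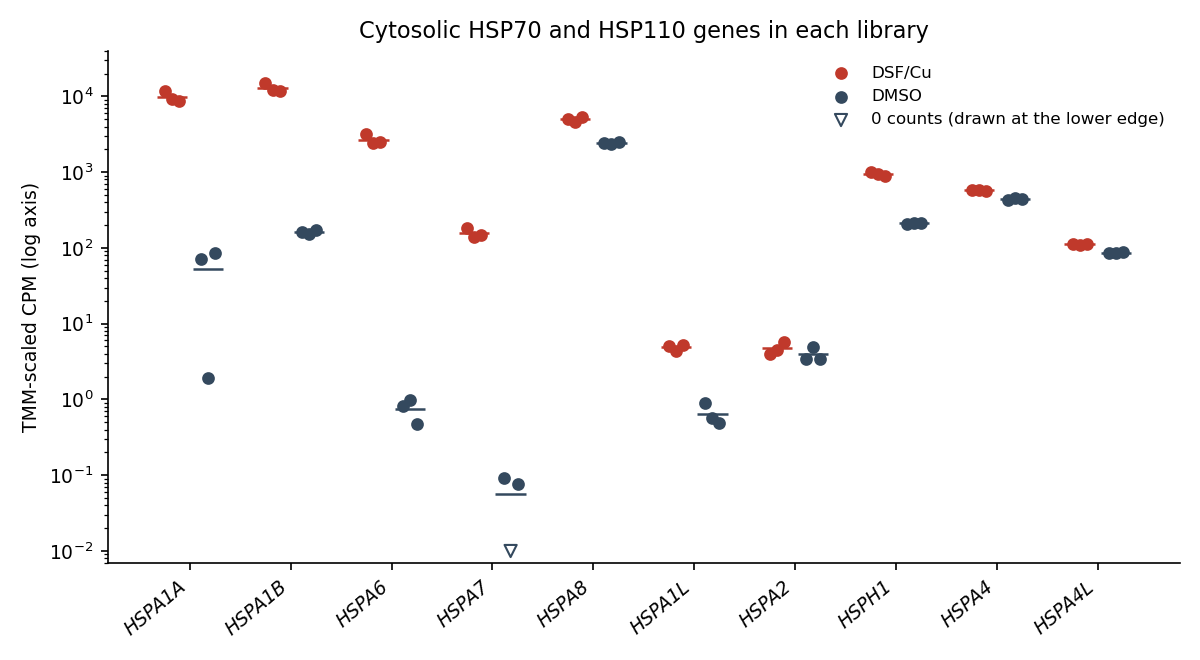
TMM-scaled CPM (log axis) of each gene in each library, with points for the 3 DSF/Cu libraries left of the 3 DMSO libraries and lines for group means. The DSF/Cu points lie above the DMSO points for 9 genes and mix with them for *HSPA2*, and 1 DMSO point of *HSPA1A* lies far below the other two.

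The inducible HSP70 genes changed most. *HSPA1B* (ENSG00000204388, chr6:31827738-31830254, plus strand), a gene with a single exon that encodes the main stress-induced HSP70, had 14913, 12110 and 11600 CPM in DSF/Cu, against 162, 154 and 171 CPM in DMSO. The lowest DSF/Cu library was far above the highest DMSO library. Its log2 fold change was 6.31 ± 0.12 (SE), or 79.3-fold, with an edgeR adjusted p of 3.81e-06. Set in order of FPKM within each library, *HSPA1B* was rank 11, 12 and 12 among all genes in DSF/Cu and rank 640, 705 and 617 in DMSO.

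*HSPA1A* (ENSG00000204389, chr6:31815464-31817946, plus strand) lies 9791 bases from *HSPA1B* and likewise has 1 exon and a coding length of 1923 bases. It had 11766, 9241 and 8811 CPM in DSF/Cu, against 71.5, 1.89 and 85.2 CPM in DMSO. The groups did not overlap, but DMSO replicate 2, with 127 counts, stood apart from DMSO replicates 1 and 3, with 5450 and 5626 counts. The log2 fold change was 7.55 ± 1.34 (SE), with an edgeR adjusted p of 0.00605. Without DMSO replicate 2 it was 6.98 ± 0.20 (SE), with an edgeR adjusted p of 0.000154. *HSPA1B* did not share the low value, with 12371, 10299 and 11307 counts in the DMSO libraries.

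Summed, *HSPA1A* and *HSPA1B* averaged 22814 ± 3380 CPM in DSF/Cu and 215 ± 52.9 CPM in DMSO (SD, n = 3 each). The log2 fold change of the sum was 6.73 ± 0.25 (SE), or 106-fold, with an edgeR adjusted p of 2.48e-05. The sum took 2.44%, 2.02% and 1.94% of all counts in DSF/Cu, against 0.0251%, 0.0165% and 0.0272% in DMSO. The sum was lower in DMSO replicate 2, with 10426 counts, than in DMSO replicates 1 and 3, with 17821 and 16933 counts.

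*HSPA6* (ENSG00000173110, chr1:161524540-161526894, plus strand) encodes HSP70B', a form known for being nearly silent in unstressed human cells. It had 177891, 138832 and 132428 counts in DSF/Cu, against 62, 66 and 31 counts in DMSO. In CPM it averaged 2687 ± 407 in DSF/Cu and 0.756 ± 0.262 in DMSO (SD, n = 3 each). The groups lay more than 3 orders of magnitude apart, with a log2 fold change of 11.79 ± 0.31 (SE) and an edgeR adjusted p of 8.86e-06. By log2 fold change it was rank 7 of the 18229 genes tested.

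*HSPA7* (ENSG00000225217, chr1:161606291-161608217, plus strand), annotated as an unprocessed pseudogene, lies 79396 bases beyond *HSPA6*. It had 10417, 8108 and 7771 counts in DSF/Cu, against 7, 0 and 5 counts in DMSO. With 12 counts in all of DMSO its fold rests on few reads: the fitted log2 fold change was 11.38 ± 0.42 (SE), with an edgeR adjusted p of 2.49e-05, and on the log2(FPKM + 1) scale of limma it was 6.01. Since *HSPA7* met the count minimum only through the DSF/Cu libraries, that edgeR adjusted p is not independent of the filter. Without a count filter its log2 fold change was 11.36 ± 0.42 (SE), with an edgeR adjusted p of 1.94e-05. *HSPA6* and *HSPA7* together had a log2 fold change of 11.77 ± 0.28 (SE), with an edgeR adjusted p of 6.54e-06.

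The split of counts within each pair was compared as a share per library. *HSPA1A* made up 44.1%, 43.3% and 43.2% of the *HSPA1A* plus *HSPA1B* counts in DSF/Cu, against 30.6%, 1.22% and 33.2% in DMSO. The shares were higher in every DSF/Cu library, and the exact two-sided permutation test gave p = 0.1, the smallest that 3 against 3 allows. The difference of the means was 21.8 percentage points with all libraries and 11.6 points without DMSO replicate 2, whose share had a 95% Wilson interval of 1.02% to 1.45%. *HSPA7* made up 5.53%, 5.52% and 5.54% of the *HSPA6* plus *HSPA7* counts in DSF/Cu, a spread of 0.0125 percentage points (SD, n = 3). In DMSO the share was 10.1% (95% Wilson interval 5.002% to 19.5%) in replicate 1, 0 of 66 counts in replicate 2 (95% Wilson upper limit 5.50%, or 4.55% by the rule that a count of 0 allows 3 counts), and 13.9% (6.08% to 28.7%) in replicate 3. The DSF/Cu shares lay inside the range of the DMSO shares (exact two-sided permutation test, p = 0.7). These intervals and limits cover counting error only, and how the counter placed fragments shared by both copies is not given in the sources used here.

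**Figure D3:**
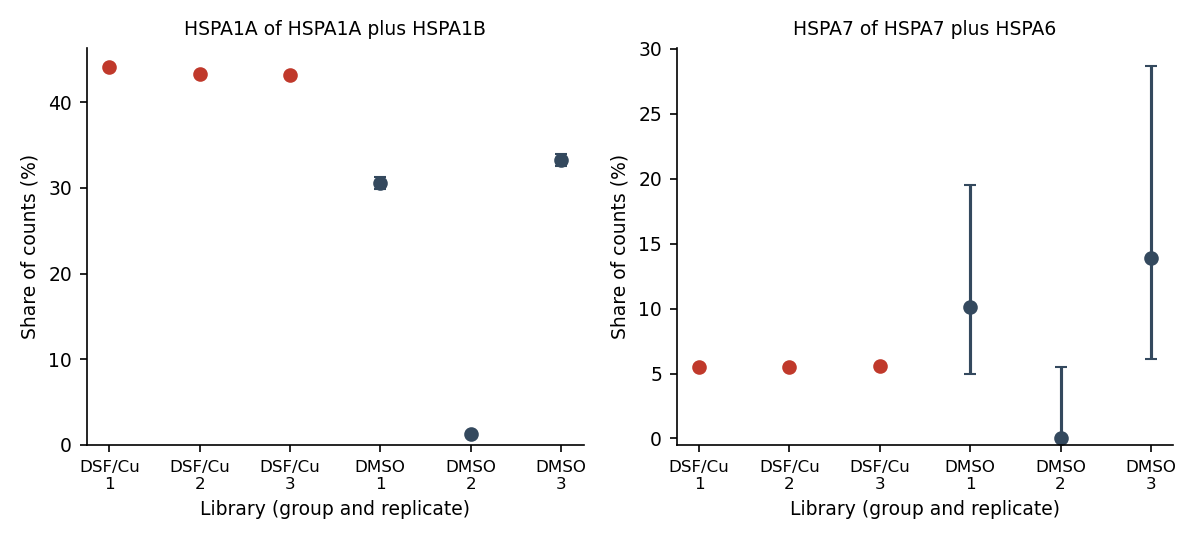
Share of *HSPA1A* in the *HSPA1A* plus *HSPA1B* counts (left) and of *HSPA7* in the *HSPA6* plus *HSPA7* counts (right), in percent, for each library, with 95% Wilson intervals that cover counting error only. The DSF/Cu shares sit close together at 43.2% to 44.1% and at 5.52% to 5.54%, while the DMSO shares spread from 1.22% to 33.2% and from 0% to 13.9%.

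The constitutive gene *HSPA8* (ENSG00000109971, chr11:123057489-123063230, minus strand, 9 exons) encodes HSC70, which also uncoats clathrin vesicles and serves chaperone-mediated autophagy. It had 5101, 4651 and 5303 CPM in DSF/Cu, against 2411, 2354 and 2489 CPM in DMSO. All DSF/Cu libraries were higher, with a log2 fold change of 1.05 ± 0.06 (SE), or 2.08-fold, and an edgeR adjusted p of 8.55e-05. The 17 annotated *HSPA8* pseudogenes in the table held between 0.0417% and 0.0563% of the *HSPA8* counts in DSF/Cu and between 0.0399% and 0.0724% in DMSO.

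*HSPA1L* and *HSPA2* encode HSP70 forms best known from the testis. *HSPA1L* (ENSG00000204390, chr6:31809619-31815283, minus strand) starts 180 bases from *HSPA1A* on the opposite strand, and their promoter windows overlap by 241 bases, so that the GAANNTTC of *HSPA1A* is the same as that of *HSPA1L*. It had 5.05, 4.35 and 5.24 CPM in DSF/Cu, against 0.892, 0.567 and 0.484 CPM in DMSO. Every DSF/Cu library was higher, at a low level in both groups. The log2 fold change was 2.91 ± 0.28 (SE), or 7.49-fold, with an edgeR adjusted p of 0.000562, and on the log2(FPKM + 1) scale of limma it was 1.00. The strand setting of the counting is not given in the sources used here, so whether reads of the *HSPA1A* side entered this count was not tested.

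*HSPA2* (ENSG00000126803, chr14:64535905-64546173, plus strand), needed for male meiosis in mice, had 4.02, 4.47 and 5.81 CPM in DSF/Cu, against 3.46, 4.997 and 3.38 CPM in DMSO. The groups overlapped, and the log2 fold change of 0.27 ± 0.23 (SE) did not pass the test (edgeR adjusted p = 0.408). Its 95% interval ran from -0.27 to 0.82, which leaves room for a modest change in either direction.

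The 3 HSP110 genes were raised, with smaller log2 fold changes than the inducible HSP70 genes. *HSPH1* (ENSG00000120694, chr13:31134974-31162388, minus strand, 18 exons), which encodes the heat-inducible HSP105, had 1002, 952 and 892 CPM in DSF/Cu, against 205, 213 and 213 CPM in DMSO. The groups were well apart, with a log2 fold change of 2.17 ± 0.06 (SE), or 4.51-fold, and an edgeR adjusted p of 8.52e-06.

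*HSPA4* (ENSG00000170606, chr5:133052013-133106449, plus strand, 19 exons), which encodes the largely constitutive exchange factor APG-2, had 579, 574 and 572 CPM in DSF/Cu, against 431, 455 and 447 CPM in DMSO. All DSF/Cu libraries were higher by a small margin, with a log2 fold change of 0.37 ± 0.04 (SE) and an edgeR adjusted p of 0.000964. *HSPA4L* (ENSG00000164070, chr4:127781821-127840733, plus strand, 19 exons), its close relative APG-1, had 113, 108 and 113 CPM in DSF/Cu, against 84.6, 84.4 and 87.6 CPM in DMSO. It was again higher in each DSF/Cu library, with a log2 fold change of 0.38 ± 0.05 (SE) and an edgeR adjusted p of 0.00207. With total-count scaling the log2 fold changes were 0.19 for *HSPA4* and 0.20 for *HSPA4L*, both still called, so their size depends on the scaling. The unscaled *HSPA4* counts ran between 30249 and 33162 in DSF/Cu and between 29511 and 32823 in the more deeply sequenced DMSO libraries.

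**Figure D4:**
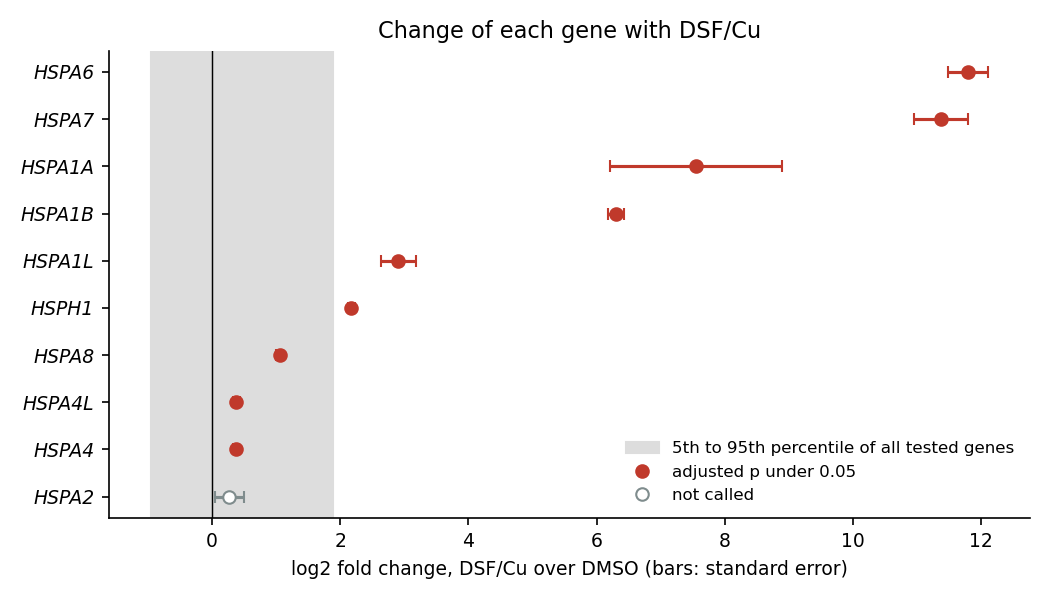
Log2 fold change, DSF/Cu over DMSO, of each gene with its standard error, over a band that spans the 5th to 95th percentile of all 18229 tested genes. *HSPA6*, *HSPA7*, *HSPA1A*, *HSPA1B*, *HSPA1L* and *HSPH1* lie beyond the band, *HSPA8*, *HSPA4L* and *HSPA4* lie inside it though called, and *HSPA2* (open) was not called.

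Levels of different genes were compared as FPKM, which depends on the length taken for each gene. In DSF/Cu replicate 1, *HSPA8* had 287752 counts and 825 FPKM, against 177891 counts and 1050.5 FPKM for *HSPA6*. Their annotated transcripts measure 2463 and 2371 bases. *HSPH1* had 56528 counts and 93.7 FPKM there, against 32681 counts and 89.1 FPKM for *HSPA4*, with transcripts of 3570 and 4825 bases. Relative to these transcripts, longer lengths lie behind the FPKM of *HSPA8* and *HSPH1*. In DSF/Cu the mean FPKM, high to low, ran in the order *HSPA1B* (4089), *HSPA1A* (3199), *HSPA6* (912), *HSPA8* (829), *HSPH1* (90.5), *HSPA4* (90.3), *HSPA7* (65.3), *HSPA4L* (7.80), *HSPA1L* (1.41) and *HSPA2* (0.661). The FPKM ranges of *HSPA6* and *HSPA8* overlapped, as did those of *HSPH1* and *HSPA4*, so FPKM orders neither pair beyond its spread. By CPM *HSPA8* was above *HSPA6*, and *HSPH1* above *HSPA4*, in every DSF/Cu library. In DMSO the order was *HSPA8* (450 FPKM), *HSPA4* (78.5), *HSPA1B* (58.2), *HSPH1* (22.6), *HSPA1A* (19.2), *HSPA4L* (6.74), *HSPA2* (0.614), *HSPA6* (0.286), *HSPA1L* (0.209) and *HSPA7* (0.0260). There *HSPA1A* overlapped both *HSPH1* and *HSPA4L*, its neighbours in the order, and *HSPA6* overlapped *HSPA1L*. The longer lengths lower *HSPA8* and *HSPH1* in both orders. FPKM alone therefore does not show that a gene listed above either of them is higher per length.

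The make-up of the cytosolic HSP70 transcript pool differed accordingly. The inducible genes *HSPA1A*, *HSPA1B*, *HSPA6* and *HSPA7* held 92.0%, 90.9% and 89.5% of the summed HSP70 FPKM in DSF/Cu, against 15.8%, 11.3% and 16.6% in DMSO. The longer length behind the FPKM of *HSPA8* lowers its share and raises the inducible share in both groups. Of the summed HSP70 CPM, the inducible genes held 83.5% ± 2.10 in DSF/Cu and 8.14% ± 1.68 in DMSO (SD, n = 3 each). By either measure no DSF/Cu library came near the DMSO range, and the exact two-sided permutation test gave p = 0.1, the smallest that 3 against 3 allows. By FPKM *HSPA8* held 9.19% ± 1.27 of the pool in DSF/Cu and 85.2% ± 2.82 in DMSO (SD, n = 3 each), although its own level was higher in DSF/Cu. *HSPA6* held 10.0% ± 0.326 in DSF/Cu and 0.0549% ± 0.0219 in DMSO. The summed HSP70 FPKM averaged 9097 ± 1059 in DSF/Cu and 528 ± 33.0 in DMSO, a 17.2-fold ratio. The longer length behind the FPKM of *HSPA8* raises this ratio too. FPKM carries no TMM scaling, so ratios of FPKM are not on the scale of the edgeR fold changes. For *HSPA8* the log2 fold change was 0.88 with limma on log2(FPKM + 1), against 1.05 with TMM in edgeR.

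**Figure D5:**
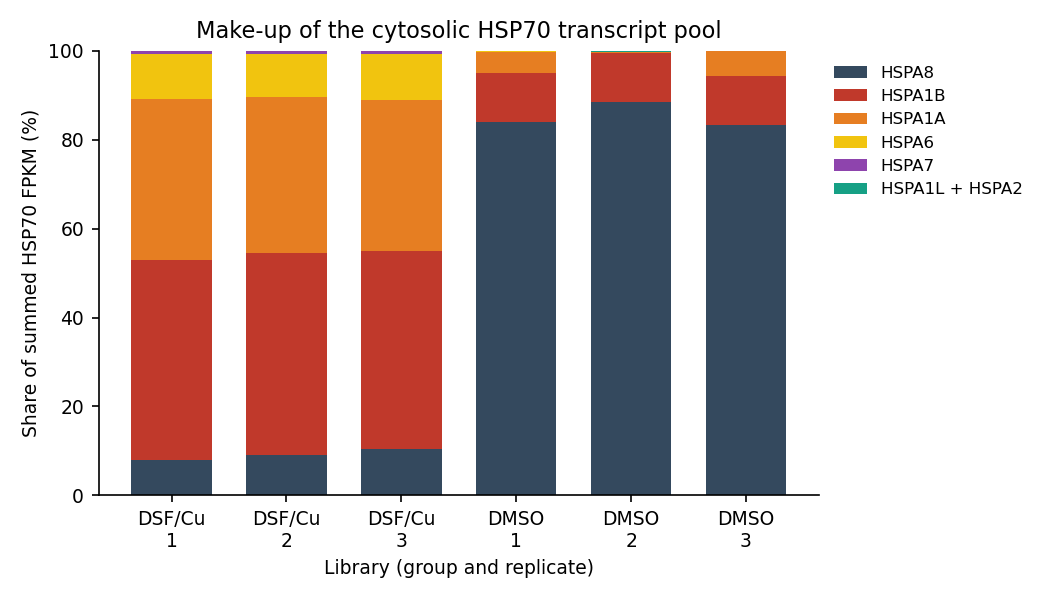
Share of each gene in the summed FPKM of the 7 cytosolic HSP70 genes, in percent, stacked for each DSF/Cu and DMSO library. The shares depend on the gene lengths behind the deposited FPKM. *HSPA8* holds between 7.998% and 10.5% of the bars in DSF/Cu and between 83.3% and 88.5% in DMSO, and *HSPA1L* with *HSPA2* is too small to be seen.

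The summed FPKM of the HSP110 genes averaged 189 ± 2.65 in DSF/Cu and 108 ± 1.98 in DMSO (SD, n = 3 each), a 1.75-fold ratio, likewise without TMM scaling. Per 100 FPKM of HSP70 there were 1.85, 2.22 and 2.20 FPKM of HSP110 in DSF/Cu, against 19.6, 22.2 and 19.6 in DMSO, a ratio chosen after its values were seen. *HSPH1* held 48.0% ± 1.32 of the HSP110 FPKM in DSF/Cu and 21.0% ± 0.139 in DMSO, while *HSPA4* held 47.9% ± 1.19 in DSF/Cu and 72.8% ± 0.312 in DMSO. The longer length behind the FPKM of *HSPH1* lowers its share in both groups and also lowers the 1.75-fold ratio. The ratio of HSP110 to HSP70 depends on such lengths too. The exact permutation test gave p = 0.1 for each of these shares, the smallest possible here.

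The rest of the pathway was read from lists of related genes, likewise chosen with earlier results of these data known. As their background, the median log2 fold change over all tested genes was 0.00, with 18.5% raised and 16.8% lowered. Among HSP70 relatives of other compartments and divergent forms (8 rows for 7 symbols), 4 were raised and 4 were not called, with a median of 0.28. None was lowered with edgeR, DESeq2 or limma, nor at an unadjusted p under 0.05 in edgeR. *HSPA5*, which encodes the endoplasmic reticulum chaperone BiP, averaged 7113 ± 485 CPM in DSF/Cu and 1350 ± 48.3 CPM in DMSO, a log2 fold change of 2.40 ± 0.06 (SE, edgeR adjusted p = 8.15e-06). *HSPA9*, the mitochondrial mortalin, averaged 1217 ± 69.5 CPM in DSF/Cu and 720 ± 62.8 CPM in DMSO, a log2 fold change of 0.76 ± 0.08 (SE, edgeR adjusted p = 0.000699). *HSPA13* (log2 fold change 0.34) and 1 of 2 rows named *HSPA14* (0.56) were called as reported but not with total-count scaling, where edgeR adjusted p was 0.140 and 0.125. The *HSPA14* call was also lost in 5 of the 6 fits that left out 1 library.

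Of 22 HSP70 co-chaperones, 13 were raised, 3 lowered and 6 not called, with a median log2 fold change of 0.45, where 18.5% of all tested genes were raised and 16.8% lowered. The J-domain genes *DNAJB1*, *DNAJB4* and *DNAJA1*, whose products hand clients to HSP70, had log2 fold changes of 3.04 ± 0.17, 1.91 ± 0.09 and 0.90 ± 0.06 (SE), with edgeR adjusted p of 9.13e-05, 5.03e-05 and 0.000124. *DNAJB1* averaged 1665 ± 346 CPM in DSF/Cu and 202 ± 20.2 CPM in DMSO. *BAG3*, an exchange factor that links HSP70 to selective autophagy, had a log2 fold change of 1.60 ± 0.10 (SE, edgeR adjusted p = 0.000154). The lowered genes, named after their values were seen, were *STUB1*, *DNAJC9* and *BAG2*. *STUB1*, which encodes the ubiquitin ligase CHIP that tags HSP70 clients for breakdown, averaged 19.3 ± 0.616 CPM in DSF/Cu and 37.3 ± 1.60 CPM in DMSO, a log2 fold change of -0.95 ± 0.07 (SE, edgeR adjusted p = 0.000271). *DNAJC9* and *BAG2* had log2 fold changes of -0.47 ± 0.08 and -0.38 ± 0.10 (SE), with edgeR adjusted p of 0.00548 and 0.0233.

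Of the 4 HSP90 genes, 3 were raised and 1 lowered, with a median log2 fold change of 0.64. Among all tested genes, 18.5% were raised and 16.8% lowered. The cytosolic *HSP90AA1* and *HSP90AB1* had log2 fold changes of 1.35 ± 0.06 and 1.01 ± 0.05 (SE), with edgeR adjusted p of 5.11e-05 and 6.13e-05. The mitochondrial *TRAP1* was lowered, with a log2 fold change of -0.40 ± 0.07 (SE, edgeR adjusted p = 0.00747). The endoplasmic reticulum form *HSP90B1* had 0.27 ± 0.04 (SE) and was not called with total-count scaling (edgeR adjusted p = 0.166).

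Of 13 heat shock factors and regulators tested, 4 were raised, 3 lowered and 6 not called, with a median log2 fold change of -0.02. With 18.5% of all tested genes raised and 16.8% lowered, these counts are near the background and are no result about the list. These counts depended on the scaling and on single libraries: there were 1 raised and 6 lowered with total-count scaling, and 2 raised without DSF/Cu replicate 1 or without DMSO replicate 3. The transcript of *HSF1*, the main activator of inducible HSP70 genes, averaged 69.0 ± 7.92 CPM in DSF/Cu and 71.8 ± 8.28 CPM in DMSO, a log2 fold change of -0.06 ± 0.12 (SE) that did not pass the test (edgeR adjusted p = 0.750). *HSF2*, a related factor, averaged 30.3 ± 1.97 CPM in DSF/Cu and 19.0 ± 1.34 CPM in DMSO, a log2 fold change of 0.67 ± 0.09 (SE, edgeR adjusted p = 0.00216). *TRRAP* and *MTOR*, which encode large kinase-family proteins, were lowered, with log2 fold changes of -0.42 and -0.40 (edgeR adjusted p = 0.00858 and 0.00964). *EP300*, a lysine acetyltransferase gene, had 0.45 (edgeR adjusted p = 0.0140) and was not called with total-count scaling (edgeR adjusted p = 0.0786) or without DMSO replicate 3 (edgeR adjusted p = 0.0515).

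The tested genes whose profile over the 6 libraries lay nearest to that of a member were found by the root mean square difference of centred log2 CPM, among 16819 genes without a 0 count. Nearest to *HSPA1B* were *RASD1* (difference 0.0657) and *FOS* (0.272). Nearest to *HSPH1* were *ABHD4* (0.0586) and *CCN2* (0.0607). *HSPA8* was matched most closely by *PDGFA* (0.0453) and *IPMK* (0.0479), and *HSPA4* by *CUL3* (0.0158) and *OXSR1* (0.0186). The points share libraries and depth, so the likeness is a description of 6 profiles.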

How the data were processed

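Per the labels' protocols, poly(A) RNA was sequenced as paired-end libraries. The authors deposited whole-number counts and FPKM values (fragments per kilobase, scaled by library size) for each gene and library, per the file headers. Bowtie 0.12.2, HISAT2 2.0, StringTie 1.3.0 and the mouse build mm8 are listed in the submitters' processing notes, with no role given; the deposited gene identifiers and positions are human, with 58190 of 58825 within 1 kb of the GENCODE 29 start (GRCh38). Which counter was used, and whether by strand, is not given in the sources used here. Columns headed Control were taken as DMSO.

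Genes were kept by filterByExpr (18229 genes, minimum count 10), scaled by TMM, and tested with the quasi-likelihood test of edgeR 4.0.16 in R 4.3.3, two-sided, with Benjamini-Hochberg adjustment over all genes tested. The steps were tested on simulated data. For the sums, each pair was replaced by its sum and the table of 18227 genes was refitted. Shares were compared by exact permutation tests, and intervals are 95% Wilson intervals. No 2 libraries of a group were copies (chi-square per degree of freedom 50.2 to 64.0). Alternatives were RLE and total-count scaling, DESeq2 1.42.0, other count filters, limma 3.58.1 on log2(FPKM + 1) or log2(FPKM + 0.1) with genes of mean FPKM of at least 0.1 or none left out, each library left out, a replicate block and, chosen after seeing the data, TMM without the members. Promoter sequences are from RefSeq (GRCh38.p14) and transcripts from GENCODE 29. The named genes were all members and sums, up to 4 genes of each related list by adjusted p, *HSF1* and *HSF2*, and 2 nearest profiles for each of 4 members. Members and lists were chosen with earlier results of these data known.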

Additional observations from a re-analysis of the deposited data

How the results depend on the processing

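In all 16 alternatives 9 members were raised and none lowered. Under them the log2 fold change ranged over 6.98 to 8.53 for *HSPA1A*, 6.11 to 6.38 for *HSPA1B*, 1.00 to 3.21 for *HSPA1L*, 6.01 to 11.95 for *HSPA7*, 9.47 to 12.01 for *HSPA6*, 0.87 to 1.11 for *HSPA8*, 1.95 to 2.22 for *HSPH1*, 0.19 to 0.40 for *HSPA4* and 0.18 to 0.41 for *HSPA4L*; *HSPA2* stayed uncalled at 0.04 to 0.47. Counts over all genes moved more: 4856 were lowered with total-count scaling, 4635 with limma on log2(FPKM + 1) and 4614 on log2(FPKM + 0.1), against 3059, and 2231 were raised with limma on log2(FPKM + 1) without a filter, against 3365. Under total-count scaling and the 3 limma settings, 2 in place of 4 other HSP70 relatives and 1 in place of 4 heat shock factors and regulators were raised, and 6 (total-count) or 5 (limma) in place of 3 of these regulators were lowered. The cause was not tested. Leaving out 1 library gave 2 to 3 raised regulators. The standard error of *HSPA1A* was 0.20 without DMSO replicate 2 and 1.49 to 1.77 without any other library. TMM without the members, chosen after seeing the data, changed no member's call.

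Libraries with the same number were not treated as paired, since the labels do not state a pairing. The correlations of their deviations were small, at 0.0257, 0.0310 and 0.0564. Each sample nevertheless correlated best with its own number, a hint from the data only. With a replicate block, 2692 genes were raised and 2451 lowered, and 9 members remained raised. Counts of 0 to 7 limit *HSPA7* in DMSO, and 3 libraries a group cannot give a permutation p under 0.1.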
